A study of Mus musculus with 26 samples.

Results

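A set of 10 genes of mouse embryonic stem cells (ESCs) that follow the estrogen-related receptors ERR beta and ERR gamma were described across all 7 groups of clones: Hdac7, Klhdc7a, Camk2n1, Mme, Padi2, Ndrg2, Zfp521, Fads6, Kcnt2 and S100a1. These 10 genes of the 24421 in the count table were chosen by their counts, because they fell in KO/Mock against WT/Mock, or rose with wild-type ERR beta or ERR gamma in the knockout. Values of those 4 groups therefore chose the members and are given below as a description, without a test. RNA was sequenced from 14 clones, 2 in each group. WT/Mock carried both copies of the ERR beta gene (Esrrb) and no ectopic receptor. All other groups were ERR beta -/- clones: KO/Mock expressed nothing further, KO/ERRb-wt expressed wild-type ERR beta, and KO/ERRg-wt expressed wild-type ERR gamma. KO/ERRb-DBDm3 expressed ERR beta deficient in DNA binding, KO/ERRb-DBDm6 ERR beta deficient in binding TFIIH, and KO/ERRb-AF2M6 ERR beta deficient in binding coactivators. Every group, the controls included, was seeded at 1600 cells per well and given 2 µg/ml doxycycline, the inducer of the constructs, for 3 days in N2B27 medium with PD and CH. The labels differ on whether LIF was also present.

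ERR beta and ERR gamma are orphan nuclear receptors that bind DNA through zinc fingers and recruit coactivators through the AF2 surface of the ligand-binding domain, without a known natural hormone. TFIIH unwinds promoter DNA for RNA polymerase II and holds the kinase that phosphorylates the polymerase tail. In mouse ESCs, Esrrb belongs to the network of factors that sustains naive self-renewal, while ERR gamma is better known from heart, muscle and other tissues of high oxidative metabolism.

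The preferred DNA element of these receptors, TCAAGGTCA, was searched on both strands in the RefSeq promoter windows of build GRCm38.p6, each running from 250 bases before to 50 bases after a start site. Of the members, 8 matched 15 windows. TCAAGGTCA was in 0 of these 15 windows and in 0.423% of all 32851 windows, and the shorter AAGGTCA in 0 of 15 and 4.72%. The nuclear receptor half-site AGGTCA, which the longer forms contain, was in 3 of 15 windows and in 16.3% of all windows. The stretches around those 3 matches are printed to show the receptor-type letters these windows hold, read 5′ to 3′ on the strand of the gene, with the half-site (or its complement TGACCT) in capitals. Each gene lies on the minus strand. The Hdac7 stretch, before one of its start sites, lies inside the annotated span of the gene.
Fads6, chr11:115297664-115297743: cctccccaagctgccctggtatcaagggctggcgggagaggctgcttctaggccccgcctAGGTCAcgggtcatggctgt
Ndrg2, chr14:51913576-51913714: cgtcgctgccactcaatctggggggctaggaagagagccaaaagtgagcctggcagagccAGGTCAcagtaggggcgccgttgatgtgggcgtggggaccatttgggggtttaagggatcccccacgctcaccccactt
Hdac7, chr15:97814953-97815102: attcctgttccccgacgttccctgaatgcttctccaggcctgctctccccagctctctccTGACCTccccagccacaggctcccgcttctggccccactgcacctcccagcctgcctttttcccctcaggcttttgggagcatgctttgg
A second Fads6 match, in an annotated exon, is not shown. A match describes letters only. The 3 genes that hold it did not form one pattern among the mutants: Fads6 and Ndrg2 passed the test above KO/Mock with 2 of the 3 mutants and Hdac7 with 0.

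Library totals ran from 21276790 to 30021667 assigned reads and clone totals from 25103562 to 54105869, and all 10 members were among the 15238 genes tested. Esrrb, whose count adds endogenous and construct transcripts, averaged 605 CPM (reads scaled to a common library size and composition) in WT/Mock, 274 in KO/Mock, 430 to 517 in the groups with an ERR beta construct and 474 in KO/ERRg-wt, which has none. The knockout clones thus still held Esrrb reads, and the count cannot show which part of the gene was deleted. Esrrg, the gene of ERR gamma, stood at 229 and 126 CPM in the KO/ERRg-wt clones and at most at 0.234 CPM in any other clone. The summed level of 8 ESC markers was 3025 to 3833 CPM over all clones, and that of 8 fibroblast feeder markers 1.12 to 7.49 CPM, with Postn at 0 in every group. Sums of 8 markers each of primitive endoderm, trophoblast, mesoderm and neuroectoderm did differ between groups. Primitive endoderm markers summed to 56.4 and 57.1 CPM in WT/Mock, 43.4 in both KO/Mock clones, 68.7 and 99.2 in KO/ERRb-wt, and 97.6 and 109 in KO/ERRg-wt. They summed to 11.6 and 55.8 in KO/ERRb-DBDm3, 15.2 and 17.3 in KO/ERRb-DBDm6, and 15.3 and 16.8 in KO/ERRb-AF2M6. Mesoderm markers summed to 61.9 and 66.4 CPM in KO/Mock, 49.6 and 66.3 in KO/ERRb-wt, and between 7.96 and 42.4 in the other groups. Trophoblast markers summed to between 117 and 188 in the 3 mutant groups and between 58.8 and 115 elsewhere, with Elf5 at 0 in 4 groups, and neuroectoderm markers to between 63.1 and 97 overall. Their part in the results was not tested, and in bulk RNA fewer cells of a type and less RNA per cell cannot be told apart.

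Hdac7, Zfp521 and Padi2 act on chromatin or transcription. Hdac7, a class IIa histone deacetylase (chr15:97792664-97844502), had 9.17 and 6.98 CPM in the WT/Mock clones, 1 and 0.736 in KO/Mock, 9.09 and 5.92 in KO/ERRb-wt, and 13.8 and 11.2 in KO/ERRg-wt. It had 1.16 and 0.501 CPM in KO/ERRb-DBDm3, 1.18 and 1.22 in KO/ERRb-DBDm6, and 0.717 and 0.33 in KO/ERRb-AF2M6. The clones of both wild-type receptors and of WT/Mock all lay above 5 CPM, and every mutant clone at or below 1.22 CPM. Hdac7 had the fewest reads here, 16 in 1 KO/ERRb-AF2M6 clone.

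Zfp521, a zinc-finger transcriptional cofactor on chromosome 18, had 4.91 and 4.92 CPM in WT/Mock, 1.34 and 1.8 in KO/Mock, 8.75 and 7.36 in KO/ERRb-wt, and 5.56 and 5.96 in KO/ERRg-wt. It had 1.12 and 2.28 CPM in KO/ERRb-DBDm3, 1.97 and 1.68 in KO/ERRb-DBDm6, and 1.25 and 2.5 in KO/ERRb-AF2M6. Zfp521 was the only member of the 10 that stood highest with ERR beta, at 164% of WT/Mock against 117% with ERR gamma. The clones of these groups did not overlap, and each mutant group overlapped KO/Mock.

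Padi2, a peptidylarginine deiminase that converts arginine to citrulline in histones and other proteins (chr4:140906360-140952586), had 8.21 and 8.57 CPM in WT/Mock, 1.73 and 1.84 in KO/Mock, 9.57 and 5.84 in KO/ERRb-wt, and 21.4 and 16.1 in KO/ERRg-wt. It had 1.93 and 0.956 CPM in KO/ERRb-DBDm3, 2.27 and 3.37 in KO/ERRb-DBDm6, and 1.08 and 1.65 in KO/ERRb-AF2M6. KO/ERRg-wt reached 223% of WT/Mock, while KO/ERRb-wt overlapped WT/Mock. Both KO/ERRb-DBDm6 clones lay above both KO/Mock clones.

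Mme and Fads6 encode enzymes of membranes. Mme, the cell-surface peptidase neprilysin (chr3:63295435-63383713), had 19.6 and 17.1 CPM in WT/Mock, 2.96 and 3.46 in KO/Mock, 14.3 and 11.2 in KO/ERRb-wt, and 37.2 and 32 in KO/ERRg-wt. It had 3.89 and 2.75 CPM in KO/ERRb-DBDm3, 6.92 and 7.77 in KO/ERRb-DBDm6, and 3.72 and 3.69 in KO/ERRb-AF2M6. Its groups fell into a clear order in which only the KO/ERRb-AF2M6, KO/ERRb-DBDm3 and KO/Mock clones ran into their neighbours.

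Fads6, a member of the fatty acid desaturase family (chr11:115283366-115297546), had 3.84 and 3.07 CPM in WT/Mock, 0.933 and 0.887 in KO/Mock, 4.01 and 2.4 in KO/ERRb-wt, and 7.06 and 6.87 in KO/ERRg-wt. It had 1.44 and 1.73 CPM in KO/ERRb-DBDm3, 1.76 and 2.4 in KO/ERRb-DBDm6, and 1.57 and 1.65 in KO/ERRb-AF2M6. All 6 mutant clones lay above both KO/Mock clones. The KO/ERRb-DBDm3, KO/ERRb-DBDm6 and KO/ERRb-AF2M6 means were 45.9%, 60.2% and 46.6% of WT/Mock.

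Camk2n1, S100a1 and Kcnt2 belong to calcium signalling and ion transport. Camk2n1, an inhibitor of the calcium/calmodulin-dependent kinase CaMKII (chr4:138455148-138460126), had 5.09 and 3.52 CPM in WT/Mock, 0.478 and 0.865 in KO/Mock, 3.51 and 2.87 in KO/ERRb-wt, and 10.3 and 10.2 in KO/ERRg-wt. It had 1.06 and 1.27 CPM in KO/ERRb-DBDm3, 1.8 and 3.03 in KO/ERRb-DBDm6, and 1.66 and 1.16 in KO/ERRb-AF2M6. Among the mutants only KO/ERRb-DBDm6 overlapped the KO/ERRb-wt clones.

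S100a1, a calcium-binding protein best known from heart and skeletal muscle (chr3:90511034-90514330), had 8.31 and 4.88 CPM in WT/Mock, 0.751 and 1.06 in KO/Mock, 3.53 and 1.58 in KO/ERRb-wt, and 15.4 and 18.9 in KO/ERRg-wt. It had 3.85 and 0.592 CPM in KO/ERRb-DBDm3, 4.35 and 8.19 in KO/ERRb-DBDm6, and 2.17 and 1.34 in KO/ERRb-AF2M6. The KO/ERRb-DBDm3 clones stood 6.51-fold apart, the widest gap between clones of 1 group for any member. Per kilobase of annotated exon, S100a1 had the highest level of the 10 in KO/ERRg-wt, 27.8 CPM per kb.

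Kcnt2, a sodium-activated potassium channel (chr1:140246257-140610261), had 5.21 and 3.75 CPM in WT/Mock, 0.546 and 0.584 in KO/Mock, 1.83 and 1.37 in KO/ERRb-wt, and 8 and 9.15 in KO/ERRg-wt. It had 1.21 and 1.71 CPM in KO/ERRb-DBDm3, 2.68 and 4.05 in KO/ERRb-DBDm6, and 1.98 and 0.846 in KO/ERRb-AF2M6. With KO/ERRb-DBDm6 both clones lay above both KO/ERRb-wt clones, as they did for S100a1.

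Ndrg2 and Klhdc7a complete the list. Ndrg2, a stress- and differentiation-associated protein of the NDRG family (chr14:51905271-51913488), had 21.2 and 20.9 CPM in WT/Mock, 4.32 and 4.05 in KO/Mock, 16.4 and 15 in KO/ERRb-wt, and 23.3 and 20.9 in KO/ERRg-wt. It had 5.65 and 6.78 CPM in KO/ERRb-DBDm3, 10.7 and 11.7 in KO/ERRb-DBDm6, and 9.36 and 4.58 in KO/ERRb-AF2M6. It was the only member whose KO/ERRg-wt clones overlapped WT/Mock. The median of the 515 tested genes of chromosome 14 was itself -0.61 (log2) in KO/Mock against WT/Mock, beside -2.33 for Ndrg2, and 0.02 to 0.06 in the other groups against KO/Mock.

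Klhdc7a, a kelch-repeat protein (chr4:139962173-139968026), had 12 and 6.55 CPM in WT/Mock, 0.591 and 0.757 in KO/Mock, 5.8 and 2.85 in KO/ERRb-wt, and 21.2 and 18.7 in KO/ERRg-wt. It had 2.6 and 5.37 CPM in KO/ERRb-DBDm3, 5.65 and 8.36 in KO/ERRb-DBDm6, and 1.96 and 1.65 in KO/ERRb-AF2M6. It fell to the lowest share of WT/Mock in KO/Mock of the 10, 7.28%, and all 6 mutant clones lay above both KO/Mock clones.

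**Figure D1:**
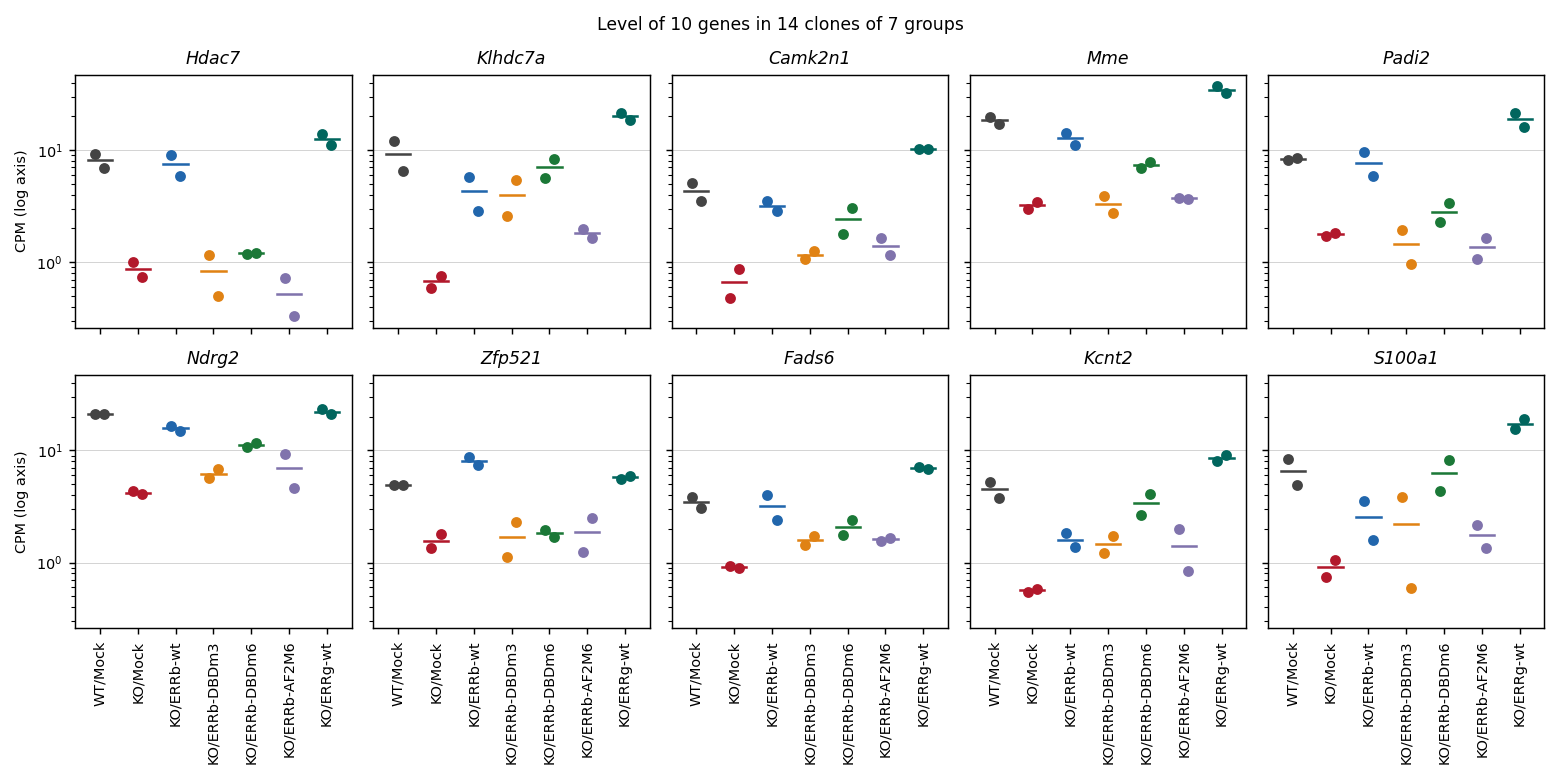
Level of each gene in CPM on a log axis; each point is 1 clone (libraries of a clone summed), each line the mean of the 2 clones of a group. KO/ERRg-wt is the highest group for every gene but Zfp521, which is highest in KO/ERRb-wt, and the mutant groups range from the KO/Mock level (Hdac7, Zfp521) to near WT/Mock (S100a1 in KO/ERRb-DBDm6).

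The contrasts that chose the members are given first, as a description. Counts of members past the threshold used later (edgeR's quasi-likelihood test, adjusted p below 0.05) follow from the choice, and nothing is read from them or from the shares beside them. In KO/Mock against WT/Mock the log2 fold changes ran from -3.77 (Klhdc7a) to -1.65 (Zfp521), with a median of -2.59, and 10 of 10 lay past that threshold (19.4% of all tested genes lower, 18.0% higher). In KO/ERRb-wt against KO/Mock the highest value was 3.11 for Hdac7 and the lowest were those of Kcnt2 and S100a1, and 8 of 10 lay past it (1.07% of genes higher, 0.781% lower). That count was 1 without KO/Mock clone 12-1, without KO/Mock clone 12-3 or without KO/ERRb-wt clone 8-3. In KO/ERRg-wt against KO/Mock the values ran from 1.87 (Zfp521) to 4.88 (Klhdc7a), and 10 of 10 lay past it (20.0% of genes higher, 18.3% lower).

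Both wild-type receptors brought the genes back to different extents. With ERR beta the median member stood at 74.2% of WT/Mock, from 35.7% (Kcnt2) to 164% (Zfp521), and with ERR gamma at 196%, from 105% (Ndrg2) to 260% (S100a1). The KO/ERRg-wt mean was 6.68-fold the KO/ERRb-wt mean for S100a1, 5.35-fold for Kcnt2, 4.61-fold for Klhdc7a and 3.22-fold for Camk2n1. It was 2.72-fold for Mme, 2.43-fold for Padi2, 2.17-fold for Fads6, 1.67-fold for Hdac7 and 1.41-fold for Ndrg2. Zfp521 went the other way, at 0.715-fold. The 4 genes with the highest ratios were thus the calcium and channel genes and Klhdc7a, and protein levels of the constructs were not analysed here. Each KO/ERRg-wt clone had 1 library where other clones had 2.

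**Figure D2:**
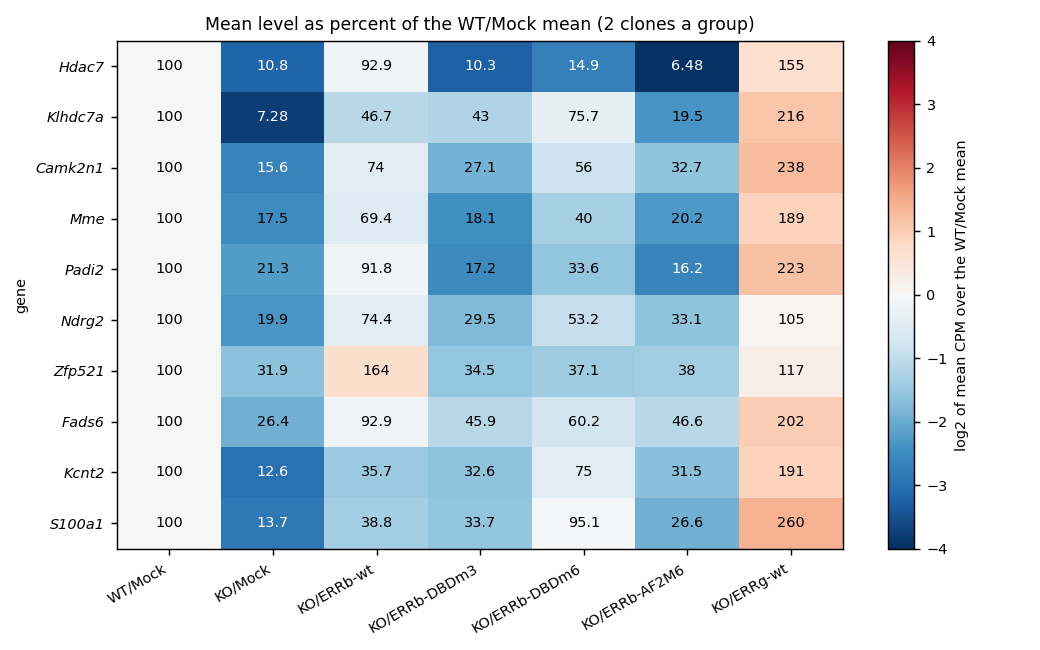
Mean CPM of each gene and group as a percentage of its WT/Mock mean (printed in the cells), coloured by the log2 of that ratio. KO/Mock holds 7.28% to 31.9%, KO/ERRg-wt 105% to 260%, and the mutant columns split the genes into those near KO/Mock and those part of the way back.

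The first question put to the mutants was which members they still raised above KO/Mock. The KO/Mock clones also entered the choice of the members, so a gene low there by chance would lean towards a rise, and the counts below are to be read with that. ERR beta deficient in TFIIH binding raised 7 of 10, where 20.8% of all tested genes were higher and 20.6% lower than in KO/Mock. ERR beta deficient in coactivator binding raised 5 of 10 (18.0% of genes higher, 19.1% lower). ERR beta deficient in DNA binding raised 2 of 10 (12.4% higher, 13.3% lower). At an unadjusted p below 0.05 of the same test, the 3 mutants in this order had 7, 5 and 4 members. All genes numbered 7610, 7167 and 5895 there. The adjusted threshold depends on how many genes change, so 5 against 2 does not by itself show a difference between mutants. Between those 2 mutants 0 of 10 members passed. No member was lower than KO/Mock past the threshold in any of the 3 mutants. The shares over all genes include whole-chromosome shifts. In KO/ERRb-DBDm3, KO/ERRb-DBDm6 and KO/ERRb-AF2M6 against KO/Mock, chromosome 6 had medians of -0.63, -0.93 and -0.96 (log2). Those of chromosome 8 were -0.53, -0.49 and -0.55. The 2 medians were -0.38 and -0.53 in KO/ERRg-wt, and 0.01 and 0.01 in KO/ERRb-wt. No member lies on these chromosomes, and their part in the shares was not tested.

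With KO/ERRb-DBDm6 the raised members were Klhdc7a (log2 fold change 3.37 ± 0.481 SE, adjusted p = 0.000336), S100a1 (2.79 ± 0.71, 0.00915), Kcnt2 (2.57 ± 0.401, 0.000539) and Camk2n1 (1.84 ± 0.35, 0.00174). Ndrg2 (1.42 ± 0.253, 0.00125), Mme (1.19 ± 0.185, 0.000519) and Fads6 (1.19 ± 0.278, 0.00553) completed the 7. These spanned the calcium and channel genes, both membrane enzymes, Ndrg2 and Klhdc7a. Padi2 (0.66, 0.158), Hdac7 (0.47, 0.392) and Zfp521 (0.22, 0.658) did not pass. S100a1 was lost without KO/Mock clone 12-1, and S100a1 and Fads6 without KO/ERRb-DBDm6 clone 10-26.

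With KO/ERRb-AF2M6 the raised members were Klhdc7a (1.42 ± 0.5, adjusted p = 0.0451), Kcnt2 (1.33 ± 0.414, 0.027), Camk2n1 (1.06 ± 0.358, 0.0371), Fads6 (0.82 ± 0.281, 0.0395) and Ndrg2 (0.74 ± 0.254, 0.0408). All 5 p-values lay close to the threshold. The count fell to 0 without KO/Mock clone 12-1 or without KO/ERRb-AF2M6 clone 32-25, to 1 without KO/Mock clone 12-3 and to 3 without KO/ERRb-AF2M6 clone 32-31. It was also 0 in a limma voom fit of the numbered libraries. S100a1 (0.95, 0.33), Mme (0.21, 0.417), Zfp521 (0.25, 0.617), Padi2 (-0.39, 0.431) and Hdac7 (-0.71, 0.239) did not pass.

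With KO/ERRb-DBDm3 Klhdc7a (2.55 ± 0.485, adjusted p = 0.00384) and Kcnt2 (1.36 ± 0.415, 0.0334) were raised. The Kcnt2 call was lost without either KO/Mock clone or KO/ERRb-DBDm3 clone 9-8, and both calls were lost in the voom fit. Without clone 9-8, which had the low S100a1 value, S100a1 passed, and without clone 9-6 Fads6 passed. Fads6 (0.80, 0.0588), Camk2n1 (0.79, 0.135), S100a1 (1.31, 0.208) and Ndrg2 (0.57, 0.125) were positive without passing. Zfp521 (0.10, 0.866), Mme (0.05, 0.864), Hdac7 (-0.04, 0.957) and Padi2 (-0.29, 0.606) lay near 0. Klhdc7a and Kcnt2 were therefore the members that passed with all 3 mutants, while Hdac7, Padi2 and Zfp521 passed with 0.

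**Figure D3:**
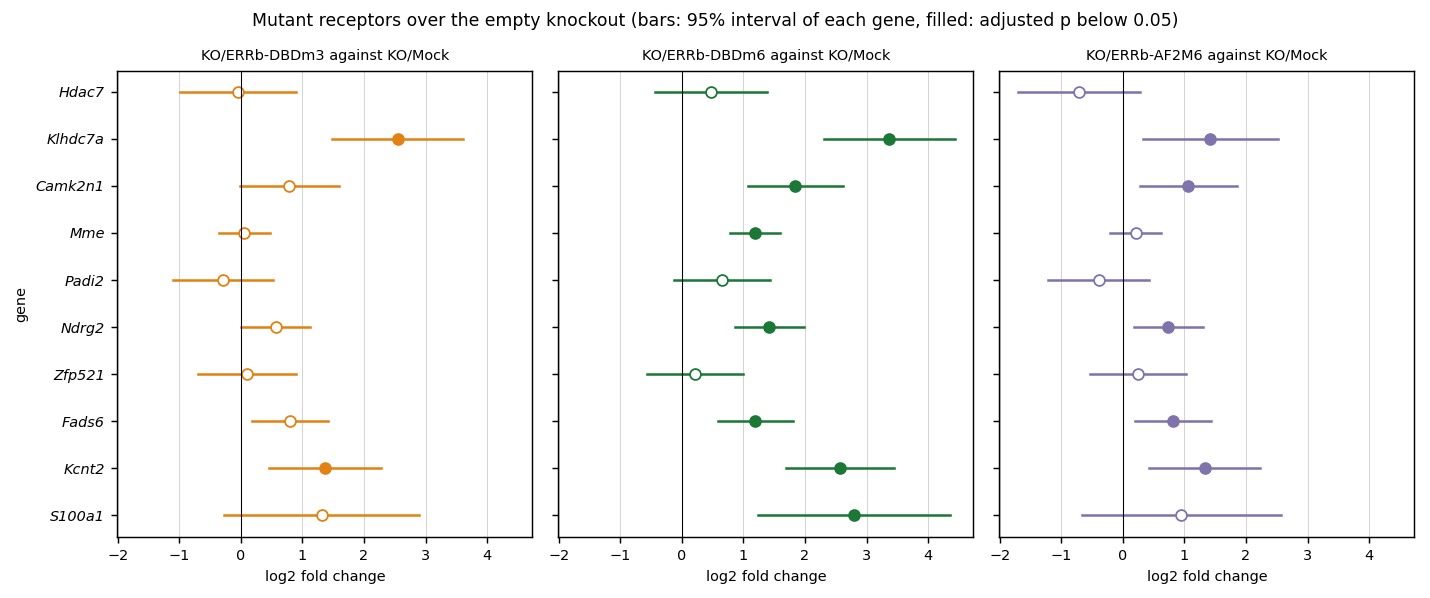
Log2 fold change of each gene in each mutant group against KO/Mock; bars are 95% intervals of the single gene, not adjusted for the number of genes, and filled points passed the adjusted threshold. Klhdc7a and Kcnt2 are filled in all 3 panels, and Hdac7, Padi2 and Zfp521 in 0.

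Against KO/ERRb-wt the mutants left different members short. The KO/ERRb-wt clones also entered the choice of the members, so a gene high there by chance would lean towards a deficit. The counts and p-values below are to be read with that. KO/ERRb-AF2M6 was lower for 8 of 10, where 22.8% of all tested genes were lower and 20.3% higher. KO/ERRb-DBDm3 was lower for 7 of 10 (16.8% lower, 15.3% higher), and KO/ERRb-DBDm6 for 4 of 10 with 1 higher (20.0% lower, 19.1% higher). Hdac7, Zfp521, Padi2 and Mme were lower in all 3 mutants. Hdac7 had the largest deficits of the 10, -3.82 ± 0.412 in KO/ERRb-AF2M6 (adjusted p = 5.84e-05), -3.15 ± 0.391 in KO/ERRb-DBDm3 (0.000279) and -2.64 in KO/ERRb-DBDm6 (0.00032). In the same order of mutants, Zfp521 stood at -2.11, -2.26 and -2.14 and Padi2 at -2.50, -2.40 and -1.45. Mme stood at -1.78, -1.93 and -0.79, the last with an adjusted p of 0.00425.

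Camk2n1, Ndrg2 and Fads6 were lower than KO/ERRb-wt in KO/ERRb-DBDm3 (-1.45, -1.34 and -1.02, adjusted p = 0.00647, 0.00246 and 0.0121) and in KO/ERRb-AF2M6 (adjusted p = 0.0119, 0.00303 and 0.00942, with -1.18 for Camk2n1 and -1.17 for Ndrg2). In KO/ERRb-DBDm6 their differences of -0.40, -0.48 and -0.62 did not pass (adjusted p = 0.33, 0.132 and 0.0722). Klhdc7a was lower in KO/ERRb-AF2M6 alone among the mutants (-1.26, adjusted p = 0.0347), against -0.13 in KO/ERRb-DBDm3 (0.84) and 0.70 in KO/ERRb-DBDm6 (0.194). S100a1 passed in 0 of the 3, at -0.54, -0.18 and 1.29. Kcnt2 was higher in KO/ERRb-DBDm6 (1.07 ± 0.358, adjusted p = 0.0339), a call lost without KO/ERRb-wt clone 8-3 (0.0668) or 8-4 (0.184) or KO/ERRb-DBDm6 clone 10-26 (0.229). KO/ERRb-wt clone 8-3 lay above clone 8-4 for 10 of 10 members, by a median of 1.43-fold, and for 51.3% of all tested genes. Without clone 8-3 the count of members below KO/ERRb-wt in KO/ERRb-AF2M6 was 5, with Klhdc7a, Camk2n1 and Fads6 lost, and 3 members passed in KO/ERRb-DBDm6, with Padi2 and Kcnt2 lost. Klhdc7a was also lost in KO/ERRb-AF2M6 without clone 32-25, Klhdc7a and Camk2n1 without clone 32-31, Padi2 in KO/ERRb-DBDm6 without clone 10-24, and Fads6 in KO/ERRb-DBDm3 without clone 8-3.

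The 3 comparisons between mutants used no clone that chose the members. In KO/ERRb-DBDm6 against KO/ERRb-DBDm3, Mme was higher (1.14 ± 0.184, 95% interval 0.74 to 1.54, adjusted p = 0.00997), the only 1 of 10 to pass, where 1.63% of genes were higher and 1.42% lower. Its clones at 6.92 and 7.77 CPM lay above those at 3.89 and 2.75. The value stayed between 0.92 and 1.42 when any clone was left out, with adjusted p = 0.0593 without clone 10-24 and 0.131 without clone 10-26. Without KO/ERRb-DBDm3 clone 9-6, 3 members passed, Padi2 and S100a1 besides Mme, while the calls over all genes went from 249 higher and 217 lower to 1075 and 943. Both KO/ERRb-DBDm6 clones also lay above both KO/ERRb-DBDm3 clones for 8 further members, all but Zfp521, a separation shown by 24.9% of all tested genes. Kcnt2 (1.21, interval 0.42 to 2.00, adjusted p = 0.0879), Ndrg2 (0.85, 0.31 to 1.39, 0.0823) and Camk2n1 (1.05, 0.33 to 1.77, 0.0979) came next without passing, and passed in DESeq2, where 4 of 10 were called. S100a1 stood at 1.48, Padi2 at 0.95, Klhdc7a at 0.82, Hdac7 at 0.51, Fads6 at 0.40 and Zfp521 at 0.12. The median was 0.90 over the members and -0.00 over all genes.

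In KO/ERRb-AF2M6 against KO/ERRb-DBDm6, 0 of 10 members and 0.00% of genes in either direction passed edgeR's adjusted threshold, while 8 members and 2119 genes had an unadjusted p below 0.05. DESeq2 called 47 genes higher and 132 lower, 2 of them members, Klhdc7a and Mme. For 9 members, all but Zfp521, both KO/ERRb-AF2M6 clones lay below both KO/ERRb-DBDm6 clones, as they did for 26.8% of all tested genes. The differences ran from -1.95 for Klhdc7a (interval -2.89 to -1.01, adjusted p = 0.228) and -1.83 for S100a1 (0.292) to -0.37 for Fads6 and 0.03 for Zfp521. Mme stood at -0.99 (interval -1.39 to -0.59, adjusted p = 0.187). Without clone 32-25, Mme, Ndrg2 and Kcnt2 passed.

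In KO/ERRb-AF2M6 against KO/ERRb-DBDm3, 0 of 10 members passed, where 0.223% of genes were higher and 0.420% lower. At an unadjusted p below 0.05 there were 1 member and 2431 genes, and DESeq2 called 236 genes higher and 313 lower, 0 of them members. That member was Klhdc7a, at -1.13 (interval -2.08 to -0.18, adjusted p = 0.234), with its KO/ERRb-AF2M6 clones below its KO/ERRb-DBDm3 clones. The clones of the other 9 members overlapped, with values from -0.67 (Hdac7, interval -1.65 to 0.32) to 0.28 (Camk2n1, -0.46 to 1.01).

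**Figure D4:**
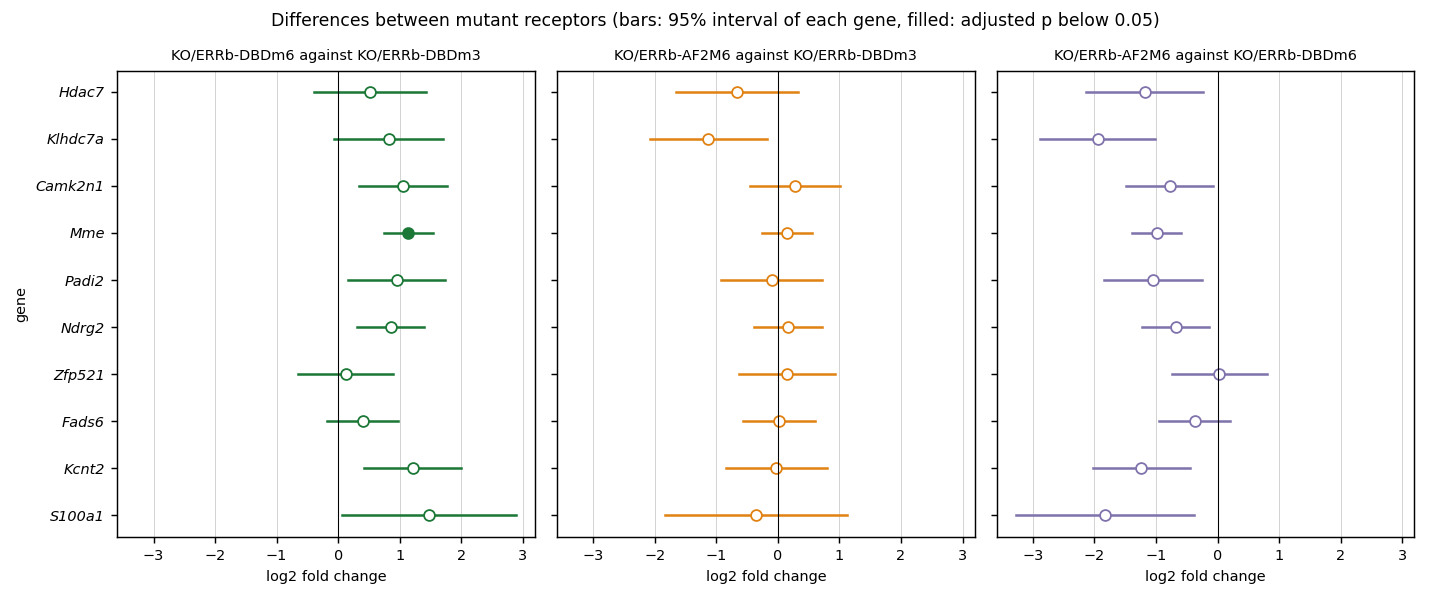
Log2 fold change of each gene between mutant groups; bars are 95% intervals of the single gene, not adjusted for the number of genes, and filled points passed the adjusted threshold. Mme in KO/ERRb-DBDm6 against KO/ERRb-DBDm3 is the only filled point; the clones of 9 genes do not overlap in the first panel and in the last (24.9% and 26.8% of all tested genes in the same direction).

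The 2 libraries of a clone did not always give the same level. In KO/ERRb-DBDm6 clone 10-26, library 2 was above library 1 for 9 of 10 members, by a median of 1.79-fold, where 52.1% of all genes were higher in library 2. Klhdc7a read 3.87 CPM in library 1 and 13 in library 2, S100a1 4.39 and 12.1, and Mme 5.65 and 9.96, whereas Ndrg2 read 12.3 and 11.2. Similar gaps were present in KO/ERRb-AF2M6 clone 32-25 (10 of 10 members, median 1.73-fold), KO/ERRb-DBDm3 clone 9-6 (9 of 10, 1.38-fold) and KO/ERRb-DBDm6 clone 10-24 (9 of 10, 1.39-fold). In the clones of WT/Mock, KO/Mock and KO/ERRb-wt the median ratio lay between 0.855 and 1.16, and in the remaining mutant clones 9-8 and 32-31 it was 0.989 and 0.932.

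With library 1 alone standing for clone 10-26, an alternative chosen after these values were seen, the same 7 members passed above KO/Mock in KO/ERRb-DBDm6. Klhdc7a was then 2.83 (adjusted p = 0.0012), S100a1 2.26 (0.0245) and Mme 0.98 (0.00246). Mme also passed over KO/ERRb-DBDm3, at 0.92 (0.0343). Kcnt2 over KO/ERRb-wt did not, at 0.84 (0.0749). With library 1 of every clone alone, Fads6 no longer passed in KO/ERRb-DBDm6 (0.89, adjusted p = 0.0683), and KO/ERRb-AF2M6 raised 1 member, Ndrg2. With library 2 of every clone alone KO/ERRb-AF2M6 raised 2, Camk2n1 and Kcnt2.

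Camk2n1, Klhdc7a and Padi2 lie near each other on chromosome 4. Klhdc7a lies 1.51 Mb and Padi2 2.45 Mb from Camk2n1, and 24 other tested genes lie between Camk2n1 and Padi2. This interval was chosen after the values were seen. Of these 24, 10 were higher and 1 lower in KO/ERRg-wt against KO/Mock (41.7% and 4.17%, against 20.0% and 18.3% of all genes). In KO/Mock against WT/Mock 4 were higher and 8 lower (16.7% and 33.3%, against 18.0% and 19.4%). Next to Padi2, its relatives Padi4, Padi1 and Padi3 rose in KO/ERRg-wt by 2.95, 1.81 and 1.47. Igsf21, an immunoglobulin-family gene beside Klhdc7a, rose by 2.57, and Pla2g5, a secreted phospholipase, by 1.67. Padi6, a further relative in the interval, rose by 1.88 with ERR gamma but stood at 0.94 in KO/Mock against WT/Mock. With the mutants, Padi1, Padi3, Padi4 and Igsf21 stood between -0.32 and 0.47 against KO/Mock and passed in 0 of 12 tests, whereas Padi6 stood at 0.42, 1.23 and 1.50 and was higher with KO/ERRb-AF2M6. Pla2g5 was higher with all 3 mutants (1.49, 2.17 and 1.41).

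**Figure D5:**
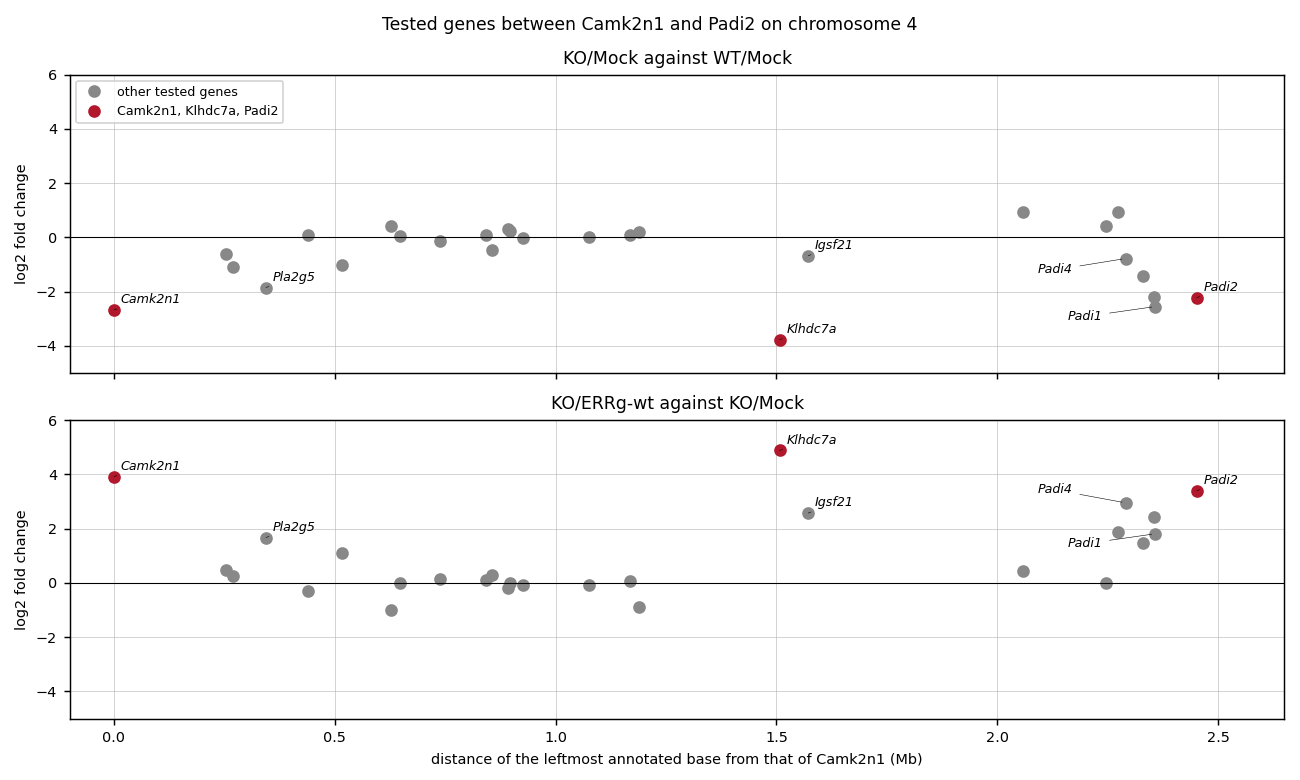
Log2 fold change (vertical) of every tested gene from Camk2n1 to Padi2 against its distance from Camk2n1 in Mb, in KO/Mock against WT/Mock (upper) and KO/ERRg-wt against KO/Mock (lower), with the members in red. Igsf21 and Padi1, Padi3 and Padi4 lie on the same side of 0 as Klhdc7a and Padi2 in both panels, Padi6 (0.94 in the upper) does not, and most genes between 0.5 and 1.5 Mb lie near 0.

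Around the 10 members, 111 other tested genes start within 500 kb. Of these, 19 were higher and 32 lower in KO/Mock against WT/Mock (17.1% and 28.8%, against 18.0% and 19.4% of all genes). The 111 include 15 genes near Ndrg2 on chromosome 14, whose median over all its tested genes was -0.61 in that contrast. Sall2 (-1.22), Zfp219 (-0.77) and Tox4 (-0.64) of these were lower, and the part of the chromosome-wide shift was not tested. In KO/ERRg-wt against KO/Mock 35 were higher and 10 lower (31.5% and 9.01%, against 20.0% and 18.3%). These lists overlap. Padi1, Padi3, Padi4, Padi6, Igsf21 and Pla2g5 of the chromosome 4 interval are among the 35, and the same Padi genes are among the relatives counted below. The counts of the 3 lists are therefore not independent. With KO/ERRb-DBDm3, KO/ERRb-DBDm6 and KO/ERRb-AF2M6 against KO/Mock, 17, 28 and 25 were higher (15.3%, 25.2% and 22.5%, against 12.4%, 20.8% and 18.0% of all genes). In the same order, 9, 14 and 9 were lower (8.11%, 12.6% and 8.11%, against 13.3%, 20.6% and 19.1%). Rapgef3, an exchange factor activated by cyclic AMP and a neighbour of Hdac7, had mean levels of 2.5 CPM in WT/Mock, 0.0785 in KO/Mock, 1.98 in KO/ERRb-wt and 7.67 in KO/ERRg-wt. It passed above KO/Mock in KO/ERRb-DBDm6 (0.495 CPM, adjusted p = 0.0136), and its difference from Hdac7 was not tested. Slc39a1, a zinc transporter near S100a1, rose in all 3 mutants over KO/Mock, by 0.68, 0.90 and 0.89. Arhgef10l, an exchange factor near Padi2, rose by 0.54, 0.53 and 0.82. Unlike the members, Arhgef10l was higher in KO/Mock against WT/Mock (0.92) and lower in KO/ERRb-wt against KO/Mock (-0.79). Slc39a1 stood at 0.11 and -0.13 in those contrasts without passing. In KO/ERRg-wt against KO/Mock, Slc39a1 rose by 0.48 and Arhgef10l by 0.44.

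Of 36 tested relatives of the members, 2 were higher and 11 lower in KO/Mock against WT/Mock (5.56% and 30.6%, against 18.0% and 19.4% of all genes). In KO/ERRg-wt against KO/Mock 9 were higher and 8 lower (25% and 22.2%, against 20.0% and 18.3%). In KO/ERRb-DBDm3, KO/ERRb-DBDm6 and KO/ERRb-AF2M6 against KO/Mock, 3, 5 and 3 were higher (8.33%, 13.9% and 8.33%, against 12.4%, 20.8% and 18.0% of all genes). In the same mutants 8, 11 and 11 were lower (22.2%, 30.6% and 30.6%, against 13.3%, 20.6% and 19.1%). Zfp423, the paralog of Zfp521, fell in all 3 (-1.66, -2.49 and -2.39), where Zfp521 stood at 0.10, 0.22 and 0.25. Klhdc4 also fell in all 3 (-0.66, -0.89 and -0.64). Values and counts of the relatives were not corrected for the shifts of chromosomes 6 and 8. In these 3 contrasts the chromosome 8 medians were -0.53, -0.49 and -0.55, and the part of the shifts was not tested. Klhdc2, a substrate receptor of a ubiquitin ligase, fell in KO/ERRb-AF2M6 (-0.76) and stood at -0.29 and -0.11 in the others.

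Of 21 tested genes from a list of ERR targets, 10, 15 and 10 were higher in KO/ERRb-DBDm3, KO/ERRb-DBDm6 and KO/ERRb-AF2M6 against KO/Mock. These were 47.6%, 71.4% and 47.6%, against 12.4%, 20.8% and 18.0% of all genes. In each mutant 3 were lower (14.3%, against 13.3%, 20.6% and 19.1%). In KO/ERRg-wt 15 were higher and 2 lower (71.4% and 9.52%, against 20.0% and 18.3%). With wild-type ERR beta, in KO/ERRb-wt against KO/Mock, 4 were higher and 0 lower (19% and 0%, against 1.07% and 0.781%). In KO/Mock against WT/Mock 2 were higher and 9 lower (9.52% and 42.9%, against 18.0% and 19.4%). Fabp3, a fatty acid carrier of muscle, rose by 1.62 with ERR beta, 3.70 with ERR gamma, and 1.35, 3.02 and 2.20 with the 3 mutants in that order. It was the only gene of that list to differ between KO/ERRb-DBDm6 and KO/ERRb-DBDm3 (1.67 ± 0.197, adjusted p = 0.00619). The pluripotency genes Tfcp2l1 (0.44, 0.64 and 0.64), Prdm14 (1.59, 1.85 and 1.81) and Nanog (0.32, 0.51 and 0.29) rose with every mutant over KO/Mock. The same 3 genes stood at 0.27, 0.32 and 0.33 in KO/ERRb-wt against KO/Mock, where only Nanog passed. With ERR gamma they rose by 1.03, 1.84 and 0.72. Prdm14 was higher in all 3 mutants than in KO/ERRb-wt (1.27, 1.53 and 1.49). Zfp42, a pluripotency marker of the same list named after its values were seen, fell with every mutant (-0.43, -0.47 and -0.48) and with ERR gamma (-0.62). Its values were not corrected for whole-chromosome shifts. On chromosome 8 the medians were -0.53, -0.49 and -0.55 with the mutants and -0.53 with ERR gamma. The part of such shifts in these values was not tested. Of 14 tested receptors and cofactors, 1, 2 and 1 were higher and 1, 2 and 4 lower in the 3 mutants. These were 7.14%, 14.3% and 7.14% higher and 7.14%, 14.3% and 28.6% lower, beside the same shares of all genes. Esrrb itself was among the higher genes in each mutant (0.90, 0.94 and 0.70). Its count includes transcripts of the constructs these groups were given, so its call is no finding about cofactors. In KO/ERRg-wt, which has no ERR beta construct, Esrrb was also higher (0.77). The corepressor Nrip1 fell in KO/ERRb-AF2M6 (-0.41) and the coactivator Ncoa2 rose in KO/ERRb-DBDm6 (0.28).

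Among the 15238 tested genes, 5 named genes outside the list had the pattern most like the mean of the members over the 14 clones, by Pearson's r of log2 CPM and without a test. These were the GTPase-activating protein Srgap1 (0.98), Cpt1b (0.979), the fatty acid elongase Elovl7 (0.975), the lipid phosphatase Mtm1 (0.971) and Rapgef3 (0.966). Cpt1b, the muscle carnitine palmitoyltransferase, had mean levels of 16.1 CPM in WT/Mock, 2.7 in KO/Mock, 10.6 in KO/ERRb-wt and 34.8 in KO/ERRg-wt. With the mutants it had 4.14 in KO/ERRb-DBDm3, 11 in KO/ERRb-DBDm6 and 4.07 in KO/ERRb-AF2M6, so that KO/ERRb-DBDm6 stood level with KO/ERRb-wt. Its count is uncertain because 94.8% of its exonic bases are shared with an annotated read-through gene of the same strand. Among the members, each set against the mean pattern of the others, Mme (0.98), Camk2n1 (0.977) and Fads6 (0.969) lay closest and Zfp521 (0.746) farthest.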

How the data were processed

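Stranded, ribosomal RNA-depleted libraries of mouse ESC clones were sequenced with 100 bp single-end reads. The deposited table holds raw read counts per gene, made by the authors with STAR 2.7.8a and featureCounts 2.0.10 on mm10, per the submitters' processing notes; the file header names featureCounts 2.0.1. The 26 libraries were summed into 14 clones (2 libraries a clone, 1 in KO/ERRg-wt), since p-values here measure the spread between clones. Genes passing edgeR's filterByExpr (15238) were fitted together with R 4.3.3 and edgeR 4.0.16 (TMM factors 0.972 to 1.05, robust quasi-likelihood test), with Benjamini-Hochberg adjustment over all of them. The fit was checked on simulated counts. Alternatives were DESeq2 1.42.0, RLE factors, no low-count filter, limma 3.58.1 voom on single libraries, TMM without chromosomes 6, 8 and 14, and each clone left out. Others, on single libraries, were added after seeing the data. The members, lists and tests were chosen with earlier results of these data known. Named genes outside the members were at most 4 a list, by smallest adjusted p, plus the 5 most like the members in pattern (1 gene that the rule names is not reported here); Padi1, Padi3, Igsf21 and Pla2g5 were chosen after their values were seen. Motif sequences come from RefSeq (GRCm38.p6).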

Additional observations from a re-analysis of the deposited data

How the results depend on the processing

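Depth and 2 clones a group limit the calls: the lowest clone count was 16 reads for Hdac7, 21 for Camk2n1, 24 for Kcnt2 and 26 for Klhdc7a and S100a1, so a missed threshold does not show equal levels. Where a clone is left out, the lone clone is assumed to vary like the other groups. Of the values of single members in the 9 tested comparisons over all alternatives, 1021 kept direction and side of the threshold, 68 lost the call, 25 gained it and 56 changed sign. None of the 56 was called before. The described contrasts kept their direction in all 270 values, of which 9 moved by more than the spread between clones (with library 1 or library 2 alone, for example Fads6 at -2.16 and -1.68 in KO/Mock against WT/Mock). Their counts of members past the threshold, with a clone left out, ran from 8 to 10 in KO/Mock against WT/Mock, from 1 to 8 in KO/ERRb-wt against KO/Mock and were 10 in KO/ERRg-wt against KO/Mock.

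With each clone left out in turn, 0 to 3 members were called in KO/ERRb-DBDm6 against KO/ERRb-DBDm3, 0 to 3 in KO/ERRb-AF2M6 against KO/ERRb-DBDm6, 1 to 3 in KO/ERRb-DBDm3 against KO/Mock and 0 to 3 in KO/ERRb-AF2M6 against KO/Mock. The range was 5 to 7 in KO/ERRb-DBDm6 against KO/Mock, and against KO/ERRb-wt 6 to 8 in KO/ERRb-DBDm3, 3 to 5 in KO/ERRb-DBDm6 and 5 to 8 in KO/ERRb-AF2M6. In KO/ERRb-DBDm6 against KO/ERRb-DBDm3 the count was 4 in DESeq2, 3 in voom and 2 with library 1 of each clone alone. In KO/ERRb-AF2M6 against KO/ERRb-DBDm6 it was 2 in DESeq2, and in KO/ERRb-DBDm3 against KO/Mock 0 in voom and 1 with library 2 alone. In KO/ERRb-AF2M6 against KO/Mock it was 3 with TMM factors set without chromosomes 6, 8 and 14, 0 in voom, 1 with library 1 alone and 2 with library 2 alone. It was 5 in KO/ERRb-AF2M6 against KO/ERRb-wt with library 2 alone. The cause of these changes was not tested.

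Counts over all genes moved too. Genes called higher and lower numbered 249 and 217 in KO/ERRb-DBDm6 against KO/ERRb-DBDm3 (691 and 590 in DESeq2, 698 and 518 in voom, 10 and 12 without clone 10-26), 34 and 64 in KO/ERRb-AF2M6 against KO/ERRb-DBDm3 (238 and 236 in voom, 732 and 815 without clone 9-6), and 163 and 119 in KO/ERRb-wt against KO/Mock (469 and 461 in DESeq2, 299 and 313 in voom, 2 and 6 without clone 12-1). Voom called 3 and 6 in KO/ERRb-AF2M6 against KO/ERRb-DBDm6, and the fit without clone 32-25 called 241 and 298. Without KO/Mock clone 12-1 the counts fell from 1887 and 2028 to 674 and 999 in KO/ERRb-DBDm3, from 3168 and 3136 to 1931 and 2054 in KO/ERRb-DBDm6, and from 2750 and 2909 to 1566 and 1937 in KO/ERRb-AF2M6.

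A replicate block on the library number, in voom with clone as a random effect, gave 3 members in KO/ERRb-DBDm6 against KO/ERRb-DBDm3 and 1 (Kcnt2) in KO/ERRb-AF2M6 against KO/Mock. The numbers do not pair the clones: deviations of library 1 correlated between clones with a median of 0.0033, from -0.121 to 0.353.

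Sign changes of members without a call, as the lowest and highest log2 value with a clone left out, were these in KO/ERRb-AF2M6 against KO/ERRb-DBDm3: Hdac7 -1.35 and 0.08, Camk2n1 -0.01 and 0.51, Mme -0.07 and 0.43, Padi2 -0.51 and 0.51, Ndrg2 -0.44 and 0.59, Zfp521 -0.43 and 0.73, Fads6 -0.10 and 0.16, Kcnt2 -0.78 and 0.45, S100a1 -1.13 and 1.57. In KO/ERRb-DBDm3 against KO/Mock they were Hdac7 -0.79 and 0.42, Mme -0.22 and 0.28, Padi2 -0.90 and 0.12, Zfp521 -0.49 and 0.53, S100a1 -0.62 and 2.08. In KO/ERRb-DBDm3 against KO/ERRb-wt they were Klhdc7a -0.73 and 0.48, Kcnt2 -0.40 and 0.09, S100a1 -2.11 and 0.59. In KO/ERRb-AF2M6 against KO/ERRb-wt they were Kcnt2 -0.92 and 0.31, S100a1 -1.01 and 0.16. Zfp521 ran from -0.55 to 0.45 in KO/ERRb-AF2M6 against KO/ERRb-DBDm6, from -0.33 to 0.67 in KO/ERRb-AF2M6 against KO/Mock, and from -0.32 to 0.70 in KO/ERRb-DBDm6 against KO/ERRb-DBDm3.

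In voom without and with the replicate block, S100a1 stood at 0.13 and 0.09 in KO/ERRb-AF2M6 against KO/ERRb-DBDm3, and Zfp521 at -0.06 and -0.06 in KO/ERRb-AF2M6 against KO/ERRb-DBDm6 and at -0.00 and -0.00 in KO/ERRb-DBDm3 against KO/Mock. With library 1 alone, in KO/ERRb-AF2M6 against KO/ERRb-DBDm3, Camk2n1 stood at -0.10, Mme at -0.11, Fads6 at -0.06 and S100a1 at 0.20. With library 1 alone, Hdac7 stood at -0.02 and Fads6 at -0.01 in KO/ERRb-DBDm6 against KO/ERRb-DBDm3, Hdac7 at 0.05 in KO/ERRb-DBDm3 against KO/Mock, Mme at -0.06 in KO/ERRb-AF2M6 against KO/Mock and Klhdc7a at -0.02 in KO/ERRb-DBDm6 against KO/ERRb-wt. With library 2 alone, Kcnt2 stood at 0.22 in KO/ERRb-AF2M6 against KO/ERRb-DBDm3 and 0.18 in KO/ERRb-AF2M6 against KO/ERRb-wt, and Zfp521 at -0.13 in KO/ERRb-AF2M6 against KO/ERRb-DBDm6. With library 2 alone, Padi2 stood at 0.00 in KO/ERRb-DBDm3 against KO/Mock, Klhdc7a at 0.04 and S100a1 at 0.32 in KO/ERRb-DBDm3 against KO/ERRb-wt, and Camk2n1 at 0.05 in KO/ERRb-DBDm6 against KO/ERRb-wt.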
